A study of Mus musculus with 6 samples.

Results

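A set of 10 genes that osteoblasts or early osteocytes use outside the classical bone matrix families was examined. They were measured in BMSCs, the stromal cells of bone marrow that attach to plastic and can become osteoblasts. The genes were taken by symbol from a list of 10 names, chosen with earlier results of these data known, and all 10 were found among the 54532 genes of the count table. The list holds the receptors Pth1r and Vdr, the transporter Slc36a2, the membrane proteins Tmem119 and Ifitm5, the membrane enzymes Sgms2 and Phex, the secreted or calcium-binding proteins Cpz and Cgref1, and the carbonic anhydrase Car3. Vdr is a nuclear receptor and Car3 a cytosolic enzyme, so these members are neither on the membrane nor secreted.

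The cells were primary wild type mouse BMSCs kept for 7 days in osteogenic medium, in which, per the labels, dexamethasone was at 100 nM, ascorbic acid at 50 µg/mL and β-glycerophosphate at 10 mM. Both groups received this medium, and the Ni group also received 0.1 µM nickel ions, given as NiCl2. The control group received vehicle. Each group had 3 biological replicates with 1 library each, the sources used here give no strain, age or sex of the mice, and the paper's methods give another dexamethasone concentration than the labels. The 6 libraries held from 16101033 to 18642504 counts.

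Parathyroid hormone and its related peptide act on osteoblasts through PTH1R, a receptor that raises cyclic AMP, while active vitamin D acts through VDR, which binds DNA together with a retinoid X receptor. PHEX is a membrane metalloprotease whose loss raises circulating FGF23 and lowers blood phosphate, and SGMS2 makes sphingomyelin at the plasma membrane. IFITM5 is largely restricted to osteoblasts, TMEM119 is made by osteoblasts in bone and by microglia in brain, and mutations in PHEX, SGMS2, IFITM5, PTH1R and VDR each cause an inherited skeletal disorder in humans.

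The labels call the cells mesenchymal stem cells, and markers of osteoblasts were present in all libraries. A list of 16 osteoblast markers took from 1.39% to 2.64% of the counts of a control library and from 3.00% to 3.92% of a Ni library. At an unadjusted edgeR p under 0.05, 14 of 14 tested genes of this list were higher in the Ni group, and 0 passed an adjusted p of 0.05. Of all 14624 tested genes, 1110 (7.59%) were higher and 853 lower at that unadjusted p. Sost, a marker of mature osteocytes, was at 0 in all 6 libraries. The cultures were not pure: 15 macrophage markers took 2.74% to 3.25% of the counts in control and 2.73% to 2.80% in Ni libraries, and 4 of the 15 were lower and none higher at an unadjusted p under 0.05. In bulk samples such as these, fewer cells of a type and less RNA per cell cannot be told apart.

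Of the 10 genes, 9 passed the filter on low counts and were tested among 14624 genes, and Cpz did not pass. All 9 had higher fitted expression in the Ni group, with log2 fold changes from 0.45 for Vdr to 1.88 for Car3 and a median of 1.33. The median over all tested genes was -0.01, and 48.1% of them had a positive value. At an unadjusted edgeR p under 0.05, 9 of 9 were higher, against 1110 of all tested genes (7.59%).

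After Benjamini-Hochberg adjustment over all genes, edgeR's quasi-likelihood test called none of the 9 at an adjusted p under 0.05, and it called 0 of the 14624 genes (0%), where the smallest adjusted p was 0.185 and 1963 genes had an unadjusted p under 0.05. Cpz got no adjusted p from DESeq2, which called 8 of the other 9 genes, all but Vdr. All 8 were higher in the Ni group, where DESeq2 called 210 of the 14065 genes with an adjusted p higher (1.49%). Without control replicate 3, edgeR called 5 members (Pth1r, Ifitm5, Tmem119, Sgms2 and Cgref1), and it called 1307 of 15044 genes higher (8.69%). With no filter on low counts it called the same 8 members as DESeq2, and 660 of 25876 genes higher (2.55%).

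In 8 of the 10 genes every Ni library lay above every control library in CPM (counts scaled to a common library total). In log2 CPM, 1165 of the 14624 tested genes did so (7.97%). The exceptions were Slc36a2 and Cpz. With 3 libraries against 3, the exact two-sided permutation test cannot give a p below 0.1, so it cannot pass 0.05 for any single gene.

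**Figure D1:**
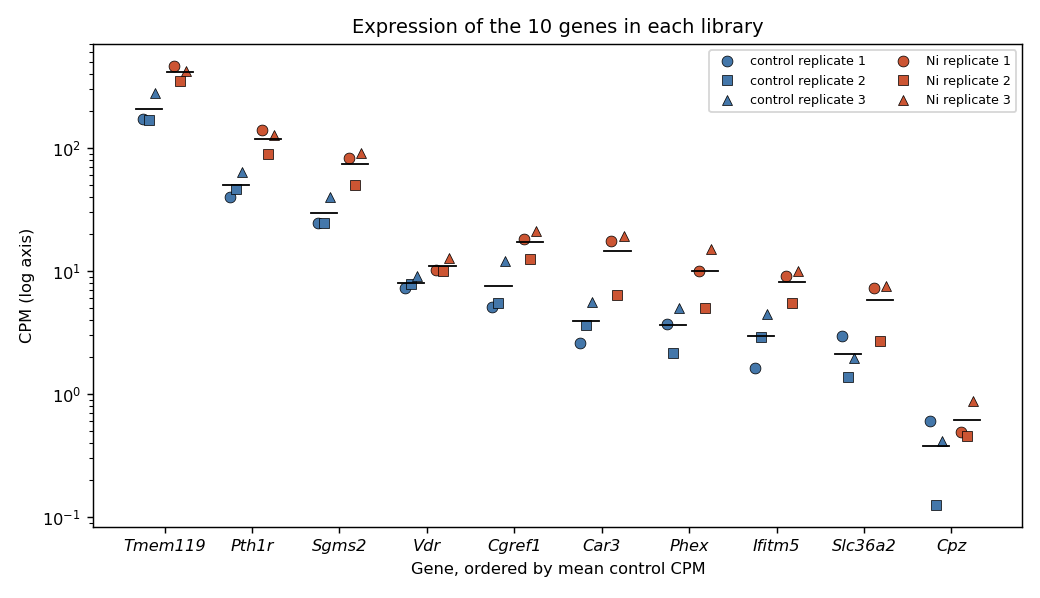
CPM of each of the 10 genes (log axis) in each of the 6 libraries, control in blue and Ni in red, with symbols for replicates 1, 2 and 3 and a bar at the mean of the 3 libraries of a group. Tmem119 lies highest at 169.8 to 464.3 CPM and Cpz lowest at 0.126 to 0.884 CPM, and only Slc36a2 and Cpz have Ni libraries at or below a control library.

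Pth1r, on the minus strand of chromosome 9 (110722085-110747145, GRCm38), encodes the receptor for parathyroid hormone and its related peptide. The control libraries held 730, 731 and 1062 counts, or 39.9, 46.0 and 63.7 CPM. The Ni libraries held 2597, 1545 and 2308 counts, or 141, 88.9 and 128 CPM. The lowest Ni library was thus 1.40 times the highest control library, the widest gap among the 10 genes. The mean went from 49.9 ± 12.4 to 119 ± 27 CPM (SD, n = 3), a log2 fold change of 1.26 (SE 0.215, 95% interval 0.76 to 1.75, edgeR adjusted p = 0.208), and Pth1r ranked 24 by p among all tested genes. Under the exons of Pth1r, 95 bases lie opposite to exons of Myl3, and the library kit as named does not mark strand, but Myl3 itself had at most 10 counts in any library.

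Of 36 other tested genes of PTH receptor signalling, 3 were higher and 5 lower at an unadjusted edgeR p under 0.05, with a median log2 fold change of -0.03. Pth and Pthlh, which encode the ligands of the receptor, were at 0 in all libraries. The non-member with the smallest p was Nr4a3, an immediate early gene, with a log2 fold change of -2.59. It had few counts, at 26, 27 and 11 in the control and 4, 2 and 5 in the Ni libraries. Next by p came Tnfsf11, which encodes RANKL, with -0.83, and the cyclic AMP phosphodiesterases Pde4b with -0.53 and Pde4d with 0.54. Values of the other genes of the list thus lay on both sides of 0.

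Vdr, on the minus strand of chromosome 15 (97854425-97910630), encodes the vitamin D receptor. The control libraries held 133, 125 and 151 counts and the Ni libraries 187, 173 and 232. In CPM these were 7.27, 7.87 and 9.06 against 10.2, 9.96 and 12.8, so the groups did not overlap but the lowest Ni library was only 1.10 times the highest control library. The log2 fold change was 0.45 (SE 0.172, 95% interval 0.06 to 0.83, edgeR adjusted p = 0.339), the smallest of the 9.

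Of 22 other tested genes of vitamin D handling and response, 3 were higher and 1 lower at an unadjusted edgeR p under 0.05, with a median log2 fold change of -0.03. Those higher were the osteocalcin genes Bglap (1.68) and Bglap2 (1.69) and the osteopontin gene Spp1 (0.63), which are also osteoblast markers, and Tnfsf11 was the lower one. Rxra, which encodes a DNA-binding partner of VDR, had a log2 fold change of 0.08. Cyp24a1, the vitamin D inactivating enzyme and a classical target of the receptor, had 1 count in all 6 libraries together.

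Slc36a2, on the minus strand of chromosome 11 (55158470-55185077), encodes a proton-coupled transporter of small amino acids such as glycine and proline. Its counts were 54, 22 and 33 in the control libraries and 134, 47 and 137 in the Ni libraries. The groups overlapped, since Ni replicate 2 at 2.71 CPM lay below control replicate 1 at 2.95 CPM. The fitted log2 fold change was 1.46 (SE 0.421, 95% interval 0.52 to 2.41, edgeR adjusted p = 0.293), and the exact permutation test gave p = 0.2.

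The other proton-assisted amino acid transporters had fitted values near 0 or too few counts. Slc36a1 was at 10.00 ± 0.646 FPKM (fragments scaled to gene length and library size, SD, n = 3) in the control and 9.58 ± 0.333 FPKM in the Ni group, with a log2 fold change of -0.06, and Slc36a4 had -0.09. Slc36a3 had 3 counts in all. Slc36a2, at 0.642 FPKM in the control and 1.79 FPKM in the Ni group, stayed below Slc36a1 and Slc36a4 in level.

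Tmem119, on the minus strand of chromosome 5 (113793729-113800516), encodes a single-pass membrane protein that supports osteoblast differentiation. Its counts were 3169, 2696 and 4664 in the control libraries and 8554, 6095 and 7591 in the Ni libraries. These were 173, 169.8 and 279.8 CPM against 464, 351 and 419 CPM. Ni replicate 2, the lowest of its group, stood at 1.25 times control replicate 3, the highest of its group. The mean went from 208 ± 62.6 to 412 ± 57.2 CPM (SD, n = 3), a log2 fold change of 0.99 (SE 0.201, 95% interval 0.53 to 1.44, edgeR adjusted p = 0.212).

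Because Tmem119 also marks microglia, 8 microglial genes were followed beside it. They took 0.287% to 0.419% of the counts in control and 0.291% to 0.304% in Ni libraries. Of the 6 tested, 2 were higher and 2 lower at an unadjusted edgeR p under 0.05. P2ry12 had a log2 fold change of 0.04, and Sall1 and Siglech had at most 6 counts in any library. Several of these 8 genes are also made by other macrophages.

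Ifitm5, on the minus strand of chromosome 7 (140948958-140950291), encodes a small membrane protein of the interferon-induced transmembrane family that is also called BRIL. Its counts were 30, 46 and 74 in the control libraries and 169, 95 and 180 in the Ni libraries. The lowest Ni library, at 5.47 CPM, was 1.23 times the highest control library, at 4.44 CPM. The log2 fold change was 1.46 (SE 0.357, 95% interval 0.66 to 2.26, edgeR adjusted p = 0.249). Of its 765 exon bases, 227 (29.7%) are shared with Gm45717 on the same strand, so its counts are uncertain where reads could be split. Gm45717 was given at most 4 counts in any library.

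Of the 6 other Ifitm genes, 1 was higher and 1 lower at an unadjusted edgeR p under 0.05. These were Ifitm10, with a log2 fold change of 1.16 at 0.752 CPM in the control, and Ifitm7, with -1.34. The abundant interferon-inducible members Ifitm2 and Ifitm3, at 360 and 308 FPKM in the control, had log2 fold changes of 0.05 and 0.06. Ifitm5, at 3.88 FPKM in the control and 10.7 FPKM in the Ni group, was far below them in level in both groups.

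Sgms2, on the minus strand of chromosome 3 (131318985-131491411), encodes sphingomyelin synthase 2, which moves phosphocholine onto ceramide. The control libraries held 453, 390 and 667 counts, or 24.8, 24.6 and 40.0 CPM. The Ni libraries held 1515, 875 and 1662 counts, or 82.2, 50.4 and 91.8 CPM. All Ni libraries lay above all controls, with the lowest at 1.26 times the highest control. Sgms2 had a log2 fold change of 1.33 (SE 0.268, 95% interval 0.71 to 1.95, edgeR adjusted p = 0.212).

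Among 28 other tested genes of sphingomyelin metabolism, 1 was higher and 1 lower at an unadjusted edgeR p under 0.05. The higher one was Smpd3, a neutral sphingomyelinase that cleaves sphingomyelin and is known for its part in bone mineralization, with 21.1 ± 4.81 CPM in the control and 46.2 ± 9.29 CPM in the Ni group (SD, n = 3), a log2 fold change of 1.13 and an edgeR adjusted p of 0.205. The lower one was Smpdl3a, with -0.33. Sgms1, the Golgi sphingomyelin synthase, had a log2 fold change of 0.32 and Samd8, a related enzyme, 0.11. The median of the other 28 was 0.03.

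Phex, on the minus strand of chromosome X (157162075-157415312), had 68, 34 and 83 counts in the control libraries and 184, 87 and 272 in the Ni libraries. Ni replicate 2, at 5.01 CPM, lay just above control replicate 3, at 4.98 CPM, so that the groups were separate by a ratio of 1.01 only. The other Ni libraries were at 9.99 and 15 CPM. For Phex the log2 fold change was 1.47 (SE 0.429, 95% interval 0.48 to 2.45, edgeR adjusted p = 0.295).

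In the FGF23 and phosphate axis, 7 of the 17 other tested genes were higher and 2 lower at an unadjusted edgeR p under 0.05, with a median log2 fold change of 0.14. The smallest p among them belonged to Galnt3, which glycosylates FGF23, with 1.37, Dmp1, an osteocyte matrix protein, with 0.98, the receptor gene Fgfr1 with 0.64 and the phosphatase gene Alpl with 1.07. Dmp1, Alpl and Mepe are also on the list of osteoblast markers. Fgf23 itself had 4, 5 and 2 counts in the control and 7, 1 and 2 in the Ni libraries, too few to be tested. Kl, which encodes the FGF23 co-receptor Klotho, was at 0.

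Cgref1, on the minus strand of chromosome 5 (30933143-30945591), encodes a secreted calcium-binding protein with EF-hand domains. Its counts were 93, 88 and 201 in the control libraries and 337, 216 and 386 in the Ni libraries. Control replicate 3, at 12.1 CPM, stood far above the other controls at 5.08 and 5.54 CPM and close to Ni replicate 2 at 12.4 CPM. Its log2 fold change was 1.20 (SE 0.346, 95% interval 0.40 to 2.00, edgeR adjusted p = 0.294), and it was 1.71 (SE 0.230, edgeR adjusted p = 0.000422) in the fit without control replicate 3. That fit drops the highest control of this gene. Without control replicate 1 the log2 fold change was 0.98, the lowest with a library left out, and the edgeR adjusted p reached 0.83 without control replicate 2. Of the 50-base stretches of its transcripts, 3.99% occur in transcripts of other genes.

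Cpz, on the minus strand of chromosome 5 (35502218-35525698), encodes a secreted carboxypeptidase with a Wnt-binding frizzled domain. It had 11, 2 and 7 counts in the control and 9, 8 and 16 in the Ni libraries, which overlapped (0.382 ± 0.240 and 0.611 ± 0.237 CPM, SD, n = 3, exact permutation p = 0.4). A difference was not detectable at this depth: with no filter on low counts the log2 fold change was 0.66 (SE 0.702, edgeR adjusted p = 0.731). Of the 6 other genes of the carboxypeptidase N/E family that were tested, 3 were higher and 1 lower at an unadjusted edgeR p under 0.05: Cpe (0.92), Cpxm1 (0.64) and Aebp1 (0.55) were higher and Cpd (-0.26) lower. Cpz lay far below Aebp1 in level, at 0.169 FPKM against 111 FPKM in the control.

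Car3, the only one of the 10 on the plus strand, lies on chromosome 3 (14863512-14872523) and encodes a carbonic anhydrase of low activity that is abundant in muscle and fat. Its counts were 48, 58 and 93 in the control libraries and 324, 112 and 352 in the Ni libraries. In CPM, Ni replicate 2 at 6.45 lay near the highest control at 5.58, and the other Ni libraries were at 17.6 and 19.4. The log2 fold change was 1.88 (SE 0.442, 95% interval 0.86 to 2.90, edgeR adjusted p = 0.251), the highest of the 9. Without Ni replicate 2 it was 2.23 (SE 0.279, edgeR adjusted p = 0.0493), and Car3 was the only member called in that fit, which called 12 of 15004 genes higher (0.08%). That fit drops the lowest Ni library of this gene. Without Ni replicate 3 the log2 fold change was 1.61, the lowest with a library left out, and the edgeR adjusted p reached 0.821 without control replicate 2.

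Since Car3 is known from muscle and fat, markers of both were followed beside it. The 10 skeletal muscle markers took 0.00124% to 0.0021% of the counts in control and 0.00198% to 0.00229% in Ni libraries, with Myh4, Myod1 and Myog at 0 in all 6 and none of the 4 tested past an unadjusted p of 0.05. All 4 had positive log2 fold changes. Actn3 gave most of this list's counts, with 228 of 260 in control replicate 1 and 360 of 426 in Ni replicate 1. The 10 adipocyte markers took 0.0856% to 0.119% in control and 0.0834% to 0.0952% in Ni libraries, with 1 of the 7 tested (Lpl, log2 fold change -0.49) lower and none higher at an unadjusted edgeR p under 0.05. Lpl and Cebpa gave most of this list's counts, with 14585 and 5206 of 21611 in control replicate 1 and 9338 and 5693 of 17329 in Ni replicate 1. Adipoq had a log2 fold change of 0.16 and Plin1, at 3, 1 and 23 against 44, 12 and 28 counts, 1.52 (SE 0.859, edgeR adjusted p = 0.464). Below the filter, Cidec had 2, 1 and 3 counts in the control and 13, 8 and 10 in the Ni libraries, without overlap. Cfd had 7, 3 and 5 against 35, 5 and 28 counts and Lep at most 2. The part of fat cells in the values of Car3 was not tested.

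Among the 6 other carbonic anhydrases tested, 2 were higher at an unadjusted edgeR p under 0.05 and none lower. Car12, a membrane-bound form, went from 61, 52 and 178 counts to 531, 218 and 708, with a log2 fold change of 2.22 (SE 0.616), and Car5b, a mitochondrial form, had 0.61. Car2, the form osteoclasts use to acidify bone, had -0.48. In both Car3 and Car12, control replicate 3 was the highest control and Ni replicate 2 the lowest Ni library.

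**Figure D2:**
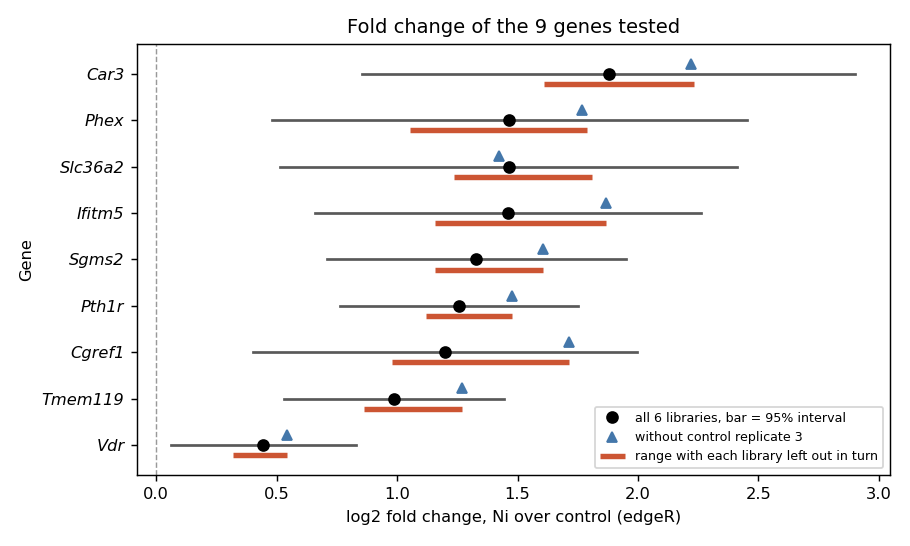
Log2 fold change (Ni over control, edgeR) of the 9 genes tested: black points with 95% intervals for all 6 libraries, red bars for the range when each library is left out in turn, and blue triangles for the fit without control replicate 3. All values are above 0, from 0.45 for Vdr to 1.88 for Car3, and the triangles lie to the right of the black points except for Slc36a2.

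**Figure D3:**
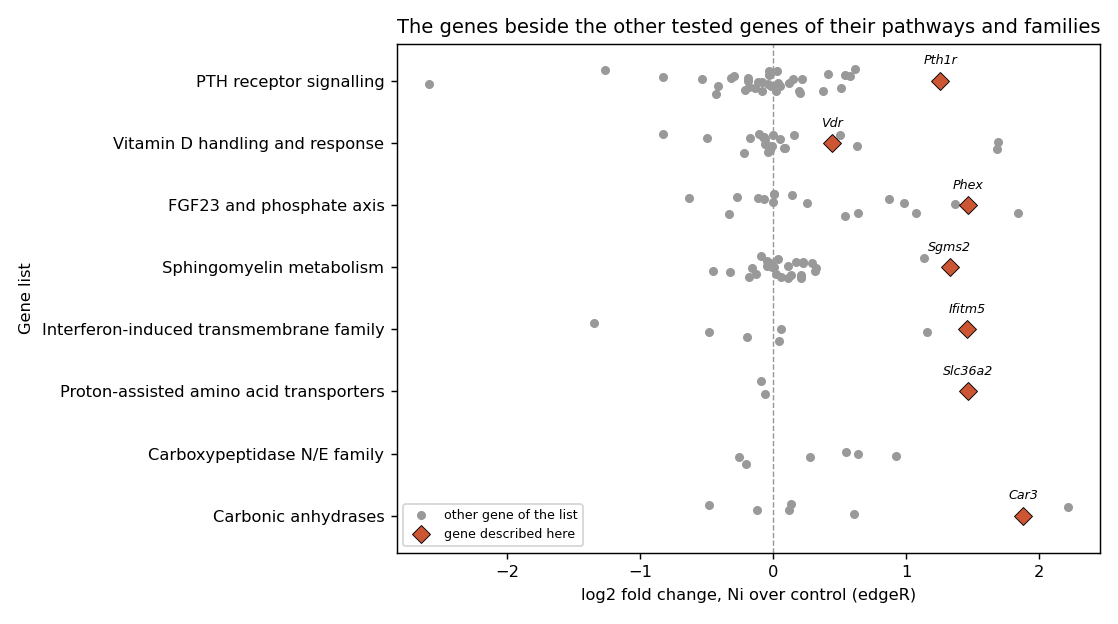
Log2 fold change (Ni over control, edgeR) of the genes described here (red diamonds) and the other tested genes of their lists (grey points), 1 row per list. Pth1r, Sgms2, Ifitm5 and Slc36a2 lie to the right of all other tested genes of their lists, Vdr, Phex and Car3 do not, and Cpz was not tested.

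The order of the genes by level per length was nearly the same in both groups. In the control group Tmem119 was at 88.9 ± 26.6 FPKM and Pth1r at 16.9 ± 4.16 FPKM (SD, n = 3), each with a range separate from the next gene. Sgms2 (4.74), Ifitm5 (3.88) and Cgref1 (3.60 FPKM) followed with ranges that overlapped with their neighbours. Next came Vdr (1.42) and Car3 (1.37), which overlapped with each other, then Slc36a2 (0.642) and Phex (0.570), and last Cpz (0.169 FPKM).

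In the Ni group the mean of Car3, at 5.04 FPKM, lay above that of Vdr, at 1.93 FPKM, though their ranges overlapped. Tmem119 was at 177 ± 25.2 and Pth1r at 40.5 ± 9.33 FPKM. By mean FPKM of the control group, Tmem119 stood at the 96.4 percentile of the tested genes and Pth1r at the 79.3 percentile, while Phex stood at 12.5.

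The libraries of a group were not alike, and the 9 tested genes shared how they differed. Control replicate 3 was the highest control in 8 of the 9, all but Slc36a2. Ni replicate 2 was the lowest Ni library in 9 of 9, and Ni replicate 3 the highest in 7. The share of all tested genes with this order was not counted. Both libraries also stood apart over all genes compared. The chi-square over its degrees of freedom was 44.3 and 47.8 for control replicate 3 against the other controls. For Ni replicate 2 against the other Ni libraries it was 20.2 and 23.7. The share of osteoblast markers had the same extremes, with 2.64% of counts in control replicate 3 and 3.00% in Ni replicate 2. The part of differing cell composition in these values was not tested.

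**Figure D4:**
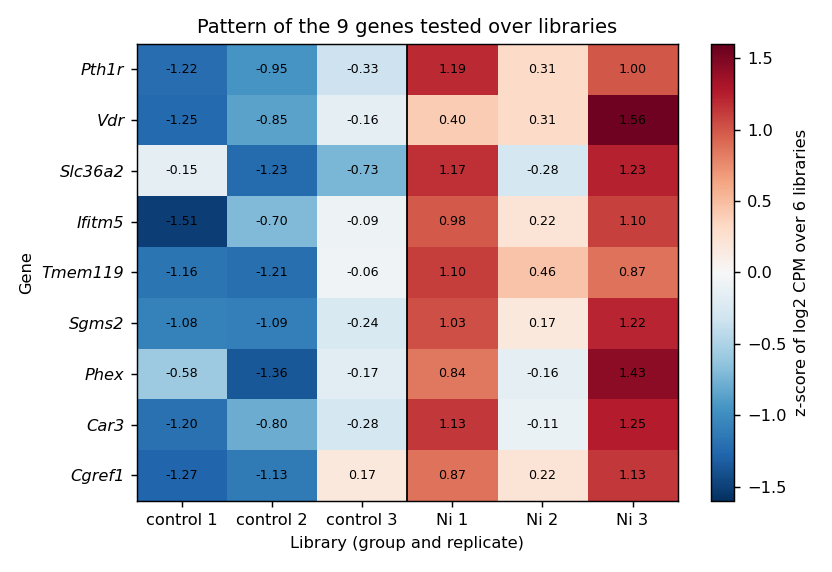
z-scores of log2 CPM over the 6 libraries for the 9 genes tested, 1 row per gene and 1 column per library, red above and blue below the gene's mean. Control 3 is the palest control in all rows but that of Slc36a2, and Ni 2 the palest of the Ni libraries throughout.

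Over the 6 libraries the genes most like the mean of the members' z-scores, among 9475 genes with a mean of at least 10 CPM, were Wisp1 (r = 0.997), Slpi (0.995), Car12 (0.995), Tpbg (0.993) and Myom1 (0.993). All points share the 2 groups and the same libraries, and 229 genes (2.42%) had an r of at least 0.95.

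Each gene was then set against 2 marker lists of the same library, a comparison chosen after seeing the data. Relative to 12 general stromal markers, 6 of the 10 genes had every Ni library above every control library, against 259 of 14612 tested genes (1.77%). They were Pth1r, Ifitm5, Tmem119, Sgms2, Car3 and Cgref1, with log2 differences of 0.80, 1.07, 0.56, 0.87, 1.33 and 0.82. Those stromal markers took 0.449% to 0.675% of the counts in control and 0.686% to 0.735% in Ni libraries, with 6 of 12 higher at an unadjusted edgeR p under 0.05. Most counts of this list came from Vim, Col3a1 and Timp2, with 29169, 24449 and 15280 of 83498 in control replicate 1.

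Relative to the 16 osteoblast markers, of whose counts Col1a1, Col1a2 and Spp1 made up 83.1% to 92.1%, none of the 10 had every Ni library above every control library, where 29 of 14610 tested genes did (0.198%). Tmem119 was nearly level on that scale, at 12.5, 12 and 10.7 counts per 1000 marker counts in the control and 11.7, 11.7 and 10.8 in the Ni libraries. Pth1r was at 2.88, 3.25 and 2.43 against 3.56, 2.96 and 3.27, a log2 difference of 0.20. Since these markers took a larger share of every Ni library, 10559 of the 14610 genes (72.3%) had every Ni library below every control library on this scale. Of the 10 members only Vdr did, at 0.525, 0.556 and 0.345 against 0.256, 0.332 and 0.329, a log2 difference of -0.62. The remaining 9 overlapped between groups. The exact permutation p for Vdr was 0.1, the smallest that 3 against 3 can give.

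**Figure D5:**
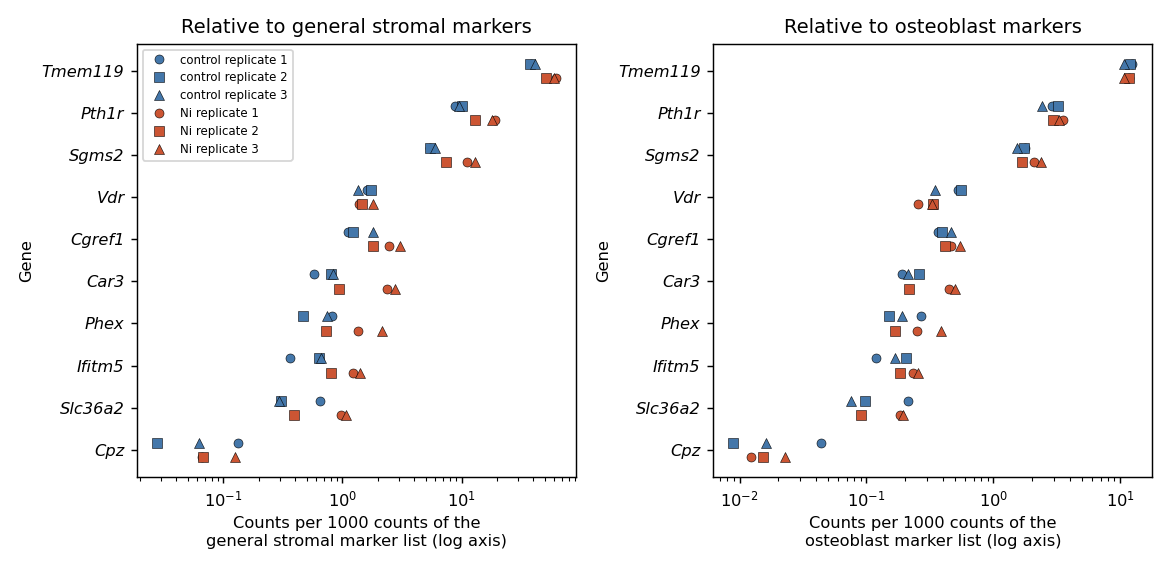
Counts of each gene per 1000 counts of the 12 general stromal markers (left) and of the 16 osteoblast markers (right) in the same library, log axes, control in blue and Ni in red with symbols for the replicates. On the left 6 genes have separate groups, and on the right only Vdr does, with its Ni libraries below the controls, as for 72.3% of all tested genes.

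Ratios between the genes within a library were also compared, and Vdr was singled out after its values were seen. Of the 36 pairs among the 9 tested genes, 5 had ratios that did not overlap between groups, and all 5 were among the 8 pairs with Vdr. In these Pth1r, Ifitm5, Tmem119, Sgms2 and Car3 were higher relative to Vdr in every Ni library, as were 140 of 14623 tested genes (0.957%). Of the 28 pairs without Vdr, 0 were separate, with exact permutation p of at least 0.2. The share of separate pairs among other genes was not counted, so this 0 has no background to be set against. Vdr had the smallest log2 fold change of the 9, so the contrast between pairs with and without it follows in part from that choice.

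Markers of other cells were also followed. The 7 chondrocyte markers took 0.015% to 0.0249% of the counts in control and 0.0288% to 0.0332% in Ni libraries, with 4 of 5 tested higher at an unadjusted edgeR p under 0.05 and Col9a1 at 0. The 8 osteoclast markers took 0.0661% to 0.132% and 0.0614% to 0.0687%, with 2 of 4 tested lower, and the other 2 had positive log2 fold changes. Acp5 gave most of this list's counts, with 18538 of 20787 in control replicate 1 and 8867 of 12356 in Ni replicate 1. The 7 endothelial markers took 0.00555% to 0.00766% and 0.00485% to 0.00513%, with 1 of 7 lower, and the 8 neutrophil markers 0.000154% to 0.000326% and 0.000206% to 0.000225%, with neither of the 2 tested past that p.

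Promoter windows of 300 bases, 250 before to 50 after a RefSeq start (GRCm38.p6), were held for 7 of the 10 genes, in 15 windows. They were searched on both strands for the RUNX core TGTGGT (in 16.8% of 32851 mouse windows), the vitamin D receptor half-site AGGTCA (16.3%), the cyclic AMP response element TGACGTCA (1.79%), the TATA motif TATAAA (13.6%) and the homeodomain motif TAATTA (5.29%). Only Sgms2 and Pth1r held any match. The farthest upstream window of Sgms2, with a RUNX core 120 bases and a half-site read from the other strand 66 bases before the start, and the farthest upstream window of Pth1r, with TAATTA beginning 2 bases before the start, are printed 5′ to 3′ on the minus strand with matches in capitals. The 1 window of Ifitm5, a gene known to be largely restricted to osteoblasts, follows, and it holds none of these motifs. A match is a description of the letters and not evidence of binding.
Sgms2, chr3:131491394-131491693: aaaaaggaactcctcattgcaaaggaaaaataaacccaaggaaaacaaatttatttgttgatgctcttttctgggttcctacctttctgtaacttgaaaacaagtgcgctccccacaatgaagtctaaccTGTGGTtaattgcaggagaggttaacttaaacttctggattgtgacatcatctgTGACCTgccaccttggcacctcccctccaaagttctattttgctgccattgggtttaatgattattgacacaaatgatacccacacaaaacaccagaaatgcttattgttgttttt
Pth1r, chr9:110747096-110747395: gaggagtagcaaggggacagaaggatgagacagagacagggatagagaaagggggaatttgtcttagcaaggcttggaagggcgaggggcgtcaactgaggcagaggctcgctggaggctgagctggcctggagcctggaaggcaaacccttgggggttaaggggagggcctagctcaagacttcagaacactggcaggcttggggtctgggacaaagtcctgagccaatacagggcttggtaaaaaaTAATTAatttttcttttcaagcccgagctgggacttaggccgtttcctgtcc
Ifitm5, chr7:140950194-140950493: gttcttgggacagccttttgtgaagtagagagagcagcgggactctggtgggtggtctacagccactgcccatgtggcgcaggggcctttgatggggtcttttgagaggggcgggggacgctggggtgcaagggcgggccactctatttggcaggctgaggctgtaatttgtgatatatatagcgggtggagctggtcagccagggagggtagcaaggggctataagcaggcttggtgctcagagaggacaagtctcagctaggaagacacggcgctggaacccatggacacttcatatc
A further window of Sgms2, chr3:131488993-131489292, held an AGGTCA half-site 198 bases before its start. No match in a window says only that these letters are not there.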

How the data were processed

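Per the labels, mRNA was fragmented, reverse-transcribed with random primers and made into libraries with the NEBNext Ultra RNA kit, and GRCm38 was the genome build. The authors deposited whole-number read counts for 54532 genes, without normalization, and FPKM values, which equalled the counts over gene length and 1 factor per library (largest relative deviation 3.29e-07). The aligner, the counting tool and the strand setting are not given in the sources used here. All coordinates of the 10 genes were the same in GENCODE M21.

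Counts were filtered by filterByExpr (14624 genes), normalized by TMM and tested, control against Ni, by the quasi-likelihood test of edgeR 4.0.16 (robust, prior count 0.125) in R 4.3.3, with Benjamini-Hochberg adjustment over all genes. The SE was the coefficient over the root of F. Separation of groups was read on TMM-scaled CPM for the members and on log2 CPM (prior count 2) for the count over all tested genes. DESeq2 1.42.0 and limma 3.58.1 on log2(FPKM + 1) and log2(FPKM + 0.1) were among the alternatives. The steps were tested on simulated data. Libraries of the same group differed by more than sampling noise (chi-square over its degrees of freedom 4.56 to 47.8), so none was a duplicate.

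The members and gene lists were chosen with earlier results of these data known. All 10 members are named, with at most the 4 other genes of smallest p per pathway list, any gene of a family list of at most 16 genes, marker genes beside a member, and the 5 genes most like the members. Mepe, Adipoq, Plin1, Lpl, Cebpa, Cidec, Cfd, Lep, Acp5, Cyp24a1, Rxra, Fgf23, Kl, Sgms1, Samd8, Pth, Pthlh and the genes overlapping a member were named after values were seen.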

Additional observations from a re-analysis of the deposited data

How the results depend on the processing

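Under the alternative fits, normalizations, filters and left-out libraries, no member's log2 fold change turned in sign, and the median of the tested members stayed positive. The number of members higher at an unadjusted p under 0.05 was 9 in most settings. It was 8 without control replicate 1, without control replicate 2 and without Ni replicate 3. The count past an adjusted p of 0.05 moved. It was 0 of 14624 genes and 0 members in the edgeR fit, 257 genes and 8 members with DESeq2's Wald test, 1027 and 8 with no filter on low counts, and 315 and 8 with the replicate number as a block, which called 1.55% of all genes higher. The causes were not tested. With each library left out in turn, from 0 to 2283 genes and from 0 to 5 members were called, with 2283 and 5 without control replicate 3, and 13 and 1 (Car3, edgeR adjusted p = 0.0493) without Ni replicate 2. DESeq2 size factors, upper quartile factors, library totals, a minimum of 10 counts in every library and limma on log2(FPKM + 1) or log2(FPKM + 0.1) called 0. Of 10 members, 8 had every Ni library above every control library, 6 did so relative to the general stromal list and 0 relative to the osteoblast list, both chosen after seeing the data. Relative to the osteoblast list the log2 differences of Vdr (-0.62), Tmem119 (-0.04) and Cpz (-0.18) were negative, as was that of Vdr (-0.02) relative to the stromal list.

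The deviations of same-numbered libraries from their group means correlated at 0.01, 0.256 and 0.138. Those of libraries with different numbers correlated at -0.219 to 0.065, below 0.256 and 0.138. These values do not settle whether libraries are paired, and the sources used here name no pairing, so the block is given as an alternative only. Depth limits Cpz, with at most 16 counts in a library. With 3 libraries a group, the calls rest on which libraries enter and on the tool.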
